A study of Mus musculus with 6 samples.

Results

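The clustered histone genes of the mouse kidney were taken as all genes in the deposited table whose symbol starts with Hist1h, Hist2h, Hist3h or Hist4h, which gave 68 of 23396 genes. The number in the symbol is the genomic cluster and the letters after the h give the histone class. The set held 6 H1, 18 H2a, 19 H2b, 12 H3 and 13 H4 genes, of which 54 lie in cluster 1 on chromosome 13, 10 in cluster 2 on chromosome 3, 3 in cluster 3 on chromosome 11 and 1 in cluster 4 on chromosome 6. Hist3h2bb-ps is a pseudogene by its name. Total RNA, depleted of ribosomal RNA, came from frozen right kidneys of male mice aged 6 months. The knockout group of 3 mice was homozygous for the Far2 knockout allele of the strain C57BL/6N-Far2tm2a(KOMP)Wtsi/2J, and the wild-type group of 3 mice was C57BL/6N. The comparison asks how kidney RNA differs between the genotypes.

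H2a, H2b, H3 and H4 build the nucleosome core around which DNA winds, and H1 binds the DNA where it enters and leaves that core. The clustered genes are known as replication-dependent histone genes: most are made during S phase, lack introns and give mRNAs that end in a hairpin bound by the protein SLBP in place of a poly(A) tail. A few of them are also known to give polyadenylated mRNAs in cells that no longer divide, and most cells of an adult kidney do not divide. Because ribosomal RNA was removed and no poly(A) selection is named in the labels, mRNAs of either ending could enter the libraries.

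The hairpin was looked for in the annotated transcripts of GENCODE M21 (GRCm38), after the stop codon, as a stem of 6 base pairs that opens with GG and closes with CC around a loop of 4 bases that opens with TT. It was found in 44 of the 67 members with an annotated coding transcript (65.7%), against 50 of 21810 other genes (0.229%). Some members without a match, among them Hist1h2aa, Hist1h2ba and Hist2h2bb, have transcripts annotated only up to the stop codon. No hairpin could be found in those, so a missing match does not show that the gene lacks one. The following sites, from each class, belong to members with high levels or with groups apart in CPM. Each is printed 5′ to 3′ on the transcribed strand with stem and loop in capitals and 5 flanking bases in lower case on either side.

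Hist1h1c: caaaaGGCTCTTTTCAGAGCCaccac
Hist1h1e: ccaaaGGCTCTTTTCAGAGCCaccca
Hist2h2ac: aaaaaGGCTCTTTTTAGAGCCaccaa
Hist3h2a: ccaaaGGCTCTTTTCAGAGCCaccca
Hist1h2be: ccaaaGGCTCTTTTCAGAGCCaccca
Hist1h3f: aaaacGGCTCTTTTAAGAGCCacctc
Hist1h4c: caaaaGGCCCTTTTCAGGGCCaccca
Hist1h4h: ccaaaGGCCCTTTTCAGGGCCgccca

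All of these sites are in 3′ untranslated regions. Hist1h1c lies at chr13:23738808-23740367 on the plus strand, Hist1h1e at chr13:23620629-23622558 on the minus strand and Hist1h4c at chr13:23697635-23698454 on the minus strand. Hist2h2ac lies at chr3:96220361-96220880 on the minus strand and Hist3h2a at chr11:58954685-58956830 on the plus strand. The form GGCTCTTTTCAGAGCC was the most frequent, in 26 members of H1, H2a, H2b and H3. The form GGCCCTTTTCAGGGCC was in 7 members, all of them H4 genes. Hist1h2bc, the H2b gene with the highest level, and Hist2h2be had no match in their annotated transcripts, and Hist1h2bc is annotated with 2 exons, while 62 members have 1 exon in every annotated transcript. Several annotated transcripts ran on past the hairpin: 840 bases in Hist1h1c, 1153 in Hist1h1e, 1643 in Hist3h2a and 2445 in Hist4h4, against 46 in Hist1h4h and 57 in Hist2h2ac.

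Promoters are shown for the leading H1 and H4 gene because the motif content of the classes differed. The 250 bases before the RefSeq start (GRCm38.p6) are given 5′ to 3′ on the gene's strand, at chr13:23738557-23738806 on the plus strand for Hist1h1c and at chr13:23698459-23698708 on the minus strand for Hist1h4c. Capitals mark CCAAT and AAACACA.
Hist1h1c: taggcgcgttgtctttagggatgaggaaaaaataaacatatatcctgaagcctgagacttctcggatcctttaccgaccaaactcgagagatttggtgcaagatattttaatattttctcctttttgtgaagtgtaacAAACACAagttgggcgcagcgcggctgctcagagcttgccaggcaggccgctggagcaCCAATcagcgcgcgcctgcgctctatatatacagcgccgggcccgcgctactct
Hist1h4c: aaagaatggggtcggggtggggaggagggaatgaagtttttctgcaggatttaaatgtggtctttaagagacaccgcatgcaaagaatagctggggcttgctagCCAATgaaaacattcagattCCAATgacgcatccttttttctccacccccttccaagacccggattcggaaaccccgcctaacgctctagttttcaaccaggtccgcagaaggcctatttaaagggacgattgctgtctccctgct

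Motifs were searched on both strands of windows from 250 bases before to 50 bases after the start, for which 62 members and 27025 promoters in all had a sequence. CCAAT was in all 50 members of H1, H2a, H2b and H3 with a window and in 3 of 12 H4 members, against 37.9% of all promoters. Hist1h4c, printed above, is 1 of those 3 H4 members. TATAAA was in 35 members (56.5%), against 14.2% of all promoters. It was in 4 of 6 H1 and 8 of 12 H4 members, but not in Hist1h1c or Hist1h4c, so the printed promoters differ from most of their class in this exact string. Variants of the string were not searched. The octamer ATTTGCAT was in 7 of 18 H2a and 6 of 16 H2b members and in no other member, against 1.75% of all promoters. AAACACA was in 5 of 6 H1 members, 2 H2a and 2 H2b members, against 7.14%. Windows of some neighbouring H2a and H2b genes overlap, such as those of Hist1h2ae and Hist1h2bg, so the same site can count for both genes. A match describes the letters in these windows and no more.

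Far2, the targeted gene, had 1.98, 1.90 and 1.43 CPM (fragments of a gene scaled to its library's total) in wild-type libraries 0, 1 and 2 and 1.59, 1.26 and 1.67 in knockout libraries 0, 1 and 2. Its log2 fold change, given throughout as knockout against wild type, was -0.23 ± 0.24 (SE). The adjusted p was 0.781 in edgeR's quasi-likelihood fit (Benjamini-Hochberg over all genes tested), so this level neither separates the labels nor checks them. The libraries held from 15261362 to 20631158 fragments assigned to genes, and 14354 genes with enough fragments were tested. Kidney epithelial markers were high in all libraries, with 15621 to 18734 CPM summed over 10 genes. Wild-type library 0 stood apart: Havcr1, an injury gene of the proximal tubule, reached 21.5 CPM in it and 0.617 to 0.917 CPM in the other 5 libraries, and Lyz2, a macrophage and neutrophil lysozyme, was at 83.7 against 9.96 to 22.9. Values without that library are given for several genes below.

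The histone genes took up 66595 fragments over the 6 libraries. Fragments were above 0 in all 6 libraries for 55 members and in at least 1 library for 64. The members at 0 in all libraries were Hist1h2aa, Hist1h2ad, Hist1h2ao and Hist1h2ap, all of class H2a. For Hist1h2ao the authors' deposited table lists group means of 0.277 FPKM in wild type and 0.0691 FPKM in knockout, although the library values are 0. The low-count filter kept 36 members, and the 28 others above 0 held from 1 to 62 fragments in total.

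Few genes carried most of the histone RNA. Hist1h1c, a linker histone, held 30.8% of all histone fragments, Hist1h2bc, an H2b gene, 19.8%, and Hist1h1e, another linker histone, 11.1%. With the H4 genes Hist1h4c (7.63%) and Hist1h4h (6.27%), these 5 genes held 75.6%. Genes differ in length, so levels between genes were ordered by the deposited FPKM (fragments scaled to gene length and library total): 4 members averaged over 100 FPKM, 11 lay between 10 and 100, 32 between 1 and 10, and 17 were above 0 and at most 1.

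Hist1h4c was the highest by FPKM, with 346, 260 and 234 FPKM in wild-type libraries 0 to 2 and 353, 344 and 314 FPKM in the knockout libraries. Hist1h2bc followed with 181, 163 and 156 FPKM in wild type and 188, 214 and 196 FPKM in knockout, and Hist1h1c with 144, 132 and 122 FPKM and 135, 131 and 154 FPKM. The ranges of these 3 genes over the 6 libraries did not overlap. Hist1h4h, at 94.6 to 135 FPKM, overlapped with Hist1h1c. Hist1h4d (57.8 to 82.6 FPKM) lay above Hist2h4 (34.1 to 50.4 FPKM), which overlapped with Hist1h1e (32.3 to 41.0 FPKM). Hist2h2ac, at 20.8 to 32.3 FPKM, came next. For comparison, the replication-independent histone genes H3f3a and H3f3b, which encode an H3 variant and are spliced and polyadenylated, averaged 250 and 146 FPKM. All of these ranks depend on the length that FPKM was scaled by. CPM divided by FPKM gave 131 to 191 bases for Hist1h4c, whose deposited locus spans 312 bases and whose annotated transcript has 820. For Hist1h1c it gave 1339 to 1445 bases on a locus of 1561. How far this scaling sets the rank of Hist1h4c was not tested.

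**Figure D1:**
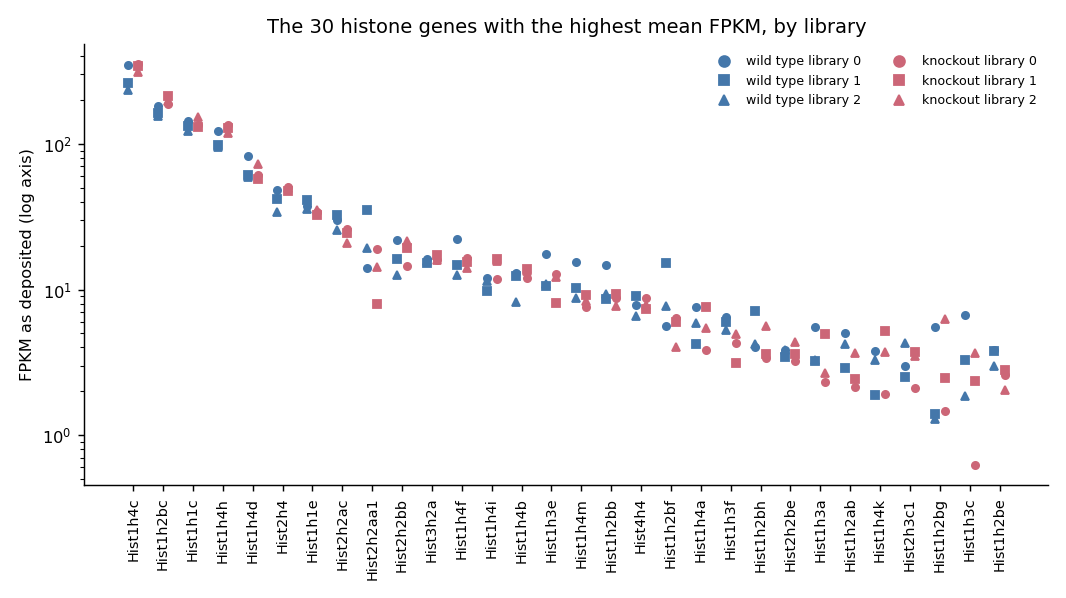
Deposited FPKM on a log axis for the 30 histone genes with the highest mean, each library shown as a point with wild type in blue and knockout in red. Levels run from 353 FPKM for Hist1h4c in knockout library 0 down to 0.623 FPKM for Hist1h3c in the same library, and the groups overlap for most genes.

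The summed histone RNA was close in the genotypes. All 68 members together gave 637, 636 and 581 CPM in wild-type libraries 0 to 2 and 589, 599 and 649 in knockout libraries 0 to 2, which is 618 ± 32.5 against 612 ± 32.0 (SD, n = 3 each). The difference was smaller than the spread within either group. The 5 leading genes summed to 457 ± 19.5 in wild type and 474 ± 22.3 in knockout, and the other 63 to 161 ± 13.2 and 138 ± 9.85, with overlapping groups in both sums. In a bulk tissue, fewer cells that make a histone mRNA and less of it per cell cannot be told apart.

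By class, H1, H2b and H4 sums overlapped between genotypes, while H2a and H3 sums were lower in all knockout libraries. H2a genes summed to 44.0, 55.0 and 46.8 CPM in wild type and 41.7, 41.0 and 41.2 in knockout. H3 genes summed to 21.04, 17.6 and 17.9 in wild type and 10.8, 13.5 and 16.6 in knockout. Without the pair Hist2h2aa1 and Hist2h2aa2, the other 16 H2a genes gave 38.31, 37.04 and 37.44 in wild type and 34.22, 37.09 and 34.56 in knockout, which overlapped. Without wild-type library 0, the log2 ratio of summed CPM was -0.30 for H2a and -0.38 for H3, against -0.24 and -0.47 with it. In summed FPKM the H2a groups were still apart. Without the pair they were apart as well, at 54.4 to 64.7 FPKM in wild type and 49.3 to 52.4 FPKM in knockout. The H3 groups overlapped, with 33.5 to 53.5 FPKM in wild type and 25.6 to 36.2 FPKM in knockout. H4 genes summed to 135 ± 14.9 CPM in wild type and 135 ± 4.59 in knockout. No p is given for a sum over chosen members.

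**Figure D2:**
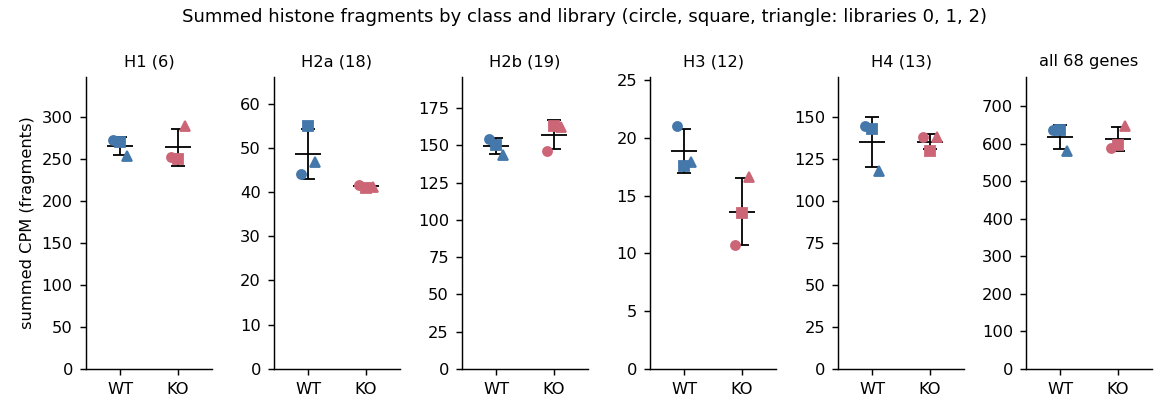
Summed CPM by histone class and for all 68 genes, with wild type in blue, knockout in red, circle, square and triangle for libraries 0, 1 and 2, and black lines for the mean and SD. Knockout H2a values (41.0 to 41.7) and H3 values (10.8 to 16.6) lie below every wild-type value of the same class.

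No histone gene passed an adjusted p of 0.05 by edgeR's quasi-likelihood test (0 of 36 tested, where 0% of all 14354 genes passed and 1193 had an unadjusted p under 0.05) and none by DESeq2 (14 of 11291 genes passed, 0.124%). Many members of low level, among them Hist1h2bf, Hist1h3f and Hist1h4m, were given no adjusted p by DESeq2, so they could not pass by it. The smallest adjusted p of a member by edgeR was 0.599. Below that threshold, 9 members had an unadjusted p under 0.05 by edgeR (25% of those tested, against 8.31% of all genes), 8 of them lower in knockout (22.2%, against 5.14%) and 1 higher (2.78%, against 3.17%). DESeq2 gave 5 with an unadjusted p under 0.05, all lower in knockout (13.9%, where 3.22% of all genes were lower with such a p by DESeq2). Fitted means were lower in knockout for 24 of 36 members (66.7%, against 51.7% of all genes), and CPM did not overlap between groups for 7 members with lower knockout values (19.4%, against 6.97%) and 1 with higher values (2.78%, against 7.13%). The median log2 fold change was -0.32 over tested members and -0.01 over all genes tested.

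These counts describe the members that passed the filter, which a gene can pass through its higher group alone. Without the filter, 45 of the 64 members above 0 had a lower fitted mean in knockout, some of them with very few fragments. The median log2 fold change of the 64 was -0.32, against -0.02 over all genes in that fit. Of the 64, 14 had a lower mean with an unadjusted p under 0.05 by edgeR, where 4.72% of all genes in that fit did. The 28 members above 0 but below the filter summed to 11.5, 7.97 and 7.14 CPM in wild type and 4.50, 5.05 and 7.76 in knockout, so their groups overlapped and wild-type library 0 was the highest. Each edgeR p-value sets a difference between groups against the spread between these mice, an estimate that draws on all genes tested. The median over tested members was -0.18 without wild-type library 0, with 6 members at an unadjusted p under 0.05, all lower, where 7.06% of all genes were.

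**Figure D3:**
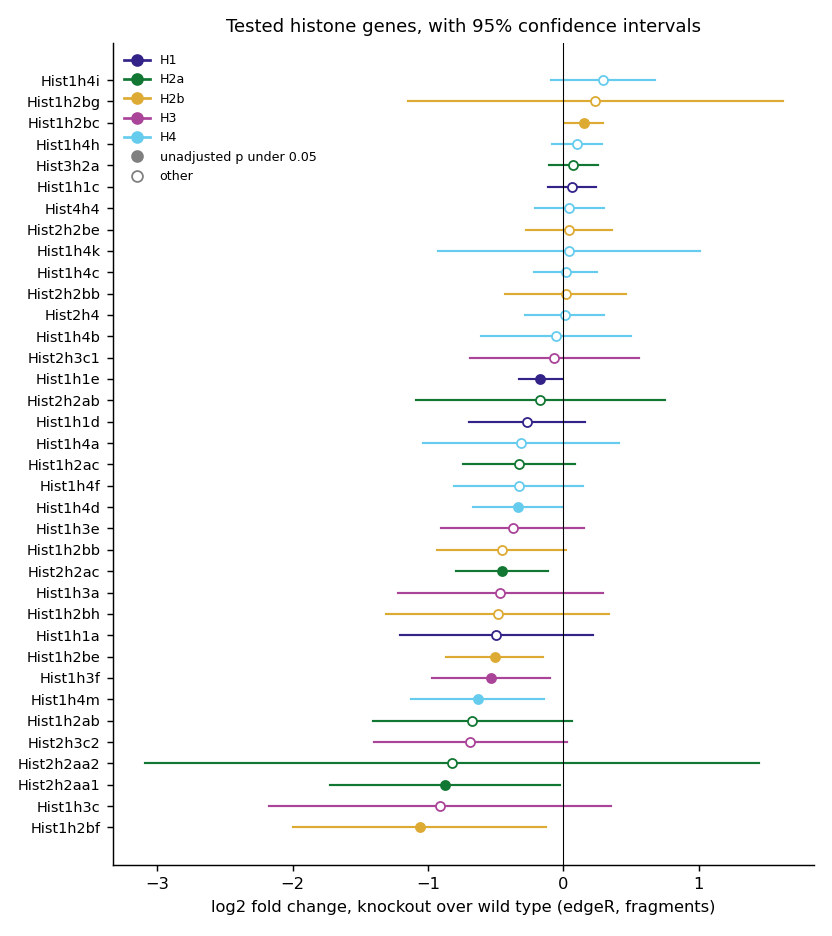
Fitted log2 fold change, knockout against wild type, with its 95% confidence interval for the 36 tested histone genes, coloured by class and filled where the unadjusted p was under 0.05. Most points lie left of 0 and most intervals cover it, and Hist1h2bc is the filled point on the right.

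Among the linker histones, which compact the fibre between nucleosomes, Hist1h1c and Hist1h1e held nearly all fragments. Hist1h1c had 193, 186 and 177 CPM in wild type and 183, 183 and 215 in knockout, a log2 fold change of 0.06 ± 0.08 (SE) with overlapping groups. Hist1h1e had 68.8, 76.5 and 70.3 in wild type and 64.2, 60.7 and 66.8 in knockout, so every knockout library lay below every wild-type library. Its log2 fold change was -0.17 ± 0.07 (unadjusted p = 0.039, adjusted p = 0.599 by edgeR). Hist1h1e shares a deposited locus with Hist1h2be and both have fractional fragment counts, so the split between them is an estimate. Hist1h1a, a linker histone of low level, had 3.03, 2.18 and 1.30 in wild type and 1.25, 1.53 and 1.89 in knockout, which overlapped. Hist1h1t, the testis-specific linker histone, held 18 fragments in all and was not tested.

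In class H2a, Hist3h2a, of the small cluster on chromosome 11, had 24.5, 23.3 and 25.1 CPM in wild type and 24.4, 27.5 and 24.9 in knockout (log2 fold change 0.07 ± 0.08). It was the H2a gene with the most fragments, and its values overlapped. Hist2h2ac had 6.401, 7.92 and 5.97 in wild type and 5.29, 5.05 and 4.53 in knockout, a log2 fold change of -0.45 ± 0.15 (unadjusted p = 0.014, adjusted p = 0.599 by edgeR). Its groups did not overlap in CPM but did in FPKM. The log2 fold change was -0.50 without wild-type library 0, and -0.32 with an unadjusted p of 0.068 without wild-type library 1, its highest. Hist1h2ac, a low-level gene of cluster 1, also had groups apart, at 2.98, 2.85 and 2.73 in wild type and 2.28, 2.53 and 2.05 in knockout, with an unadjusted p of 0.109.

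Hist2h2aa1 and Hist2h2aa2 have the same coding sequence and share a deposited locus, so coding fragments of the pair cannot be told apart. Hist2h2aa1 had 5.71, 16.5 and 8.75 CPM in wild type and 7.46, 3.23 and 6.07 in knockout. Wild-type library 1 was the highest and wild-type library 0 lay within the knockout range. Its log2 fold change was -0.88 ± 0.38 (unadjusted p = 0.045, adjusted p = 0.599 by edgeR), and -0.34 with an unadjusted p of 0.298 without wild-type library 1. The authors' deposited table gives Hist2h2aa1 a log2 fold change of -0.74 and a q-value of 0.0191, and it is the 1 histone gene with a q-value under 0.05 there, where 88 of 13404 genes had one (0.657%). Hist2h2aa2 was credited with 0.560 to 1.44 CPM in 4 libraries and was near 0 in wild-type library 0 and knockout library 0. The pair summed to 5.71, 17.9 and 9.41 in wild type and 7.46, 3.92 and 6.63 in knockout.

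The remaining tested H2a genes, Hist1h2ab and Hist2h2ab, each lay between 0.266 and 1.59 CPM in every library and overlapped between groups. Of the 18 H2a genes, 6 of the 7 tested had a lower fitted mean in knockout, against 51.7% of all genes.

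In class H2b, Hist1h2bc was the only member of any class that was higher in knockout with an unadjusted p under 0.05 in edgeR's fit of fragments. It had 118, 116 and 115 CPM in wild type and 122, 135 and 131 in knockout, and the groups did not overlap. The wild-type mean was 116 ± 1.52 and the knockout mean 129 ± 7.003 (SD, n = 3 each), a 1.11-fold difference with a log2 fold change of 0.15 ± 0.06 (unadjusted p = 0.039, adjusted p = 0.599 by edgeR). Without wild-type library 0 it was 0.16 with an unadjusted p of 0.060. In the authors' deposited table its log2 fold change was 0.26 with a q-value of 0.486.

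Hist1h2be and Hist1h2bf, H2b genes of lower level, were lower in knockout. Hist1h2be had 7.75, 7.84 and 6.44 CPM in wild type and 5.42, 5.99 and 4.21 in knockout, with no overlap and a log2 fold change of -0.51 ± 0.16 (unadjusted p = 0.011, adjusted p = 0.599 by edgeR). It was the 1 member whose unadjusted p by edgeR stayed under 0.05 in each of the 6 fits that left out a library. Those p-values ran from 0.0076 to 0.048 by edgeR. In the authors' deposited table its log2 fold change was -0.51 with a q-value of 0.965. The fragments of Hist1h2be are an estimated split with Hist1h1e, which shares its deposited locus and is far more abundant. Hist1h2bf had 1.34, 4.32 and 2.14 in wild type and 1.48, 1.33 and 0.970 in knockout, so wild-type library 1 was far above the rest and library 0 lay within the knockout range. Its log2 fold change of -1.06 ± 0.42 (unadjusted p = 0.030, adjusted p = 0.599 by edgeR) became -0.45 with an unadjusted p of 0.216 without wild-type library 1. That library held 91 fragments of it, against 18 to 33 in the others.

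Hist1h2bb, with 4.57, 2.94 and 3.18 in wild type and 2.68, 2.73 and 2.43 in knockout, also had groups apart in CPM (log2 fold change -0.45 ± 0.21, unadjusted p = 0.059), and its log2 fold change was -0.23 without wild-type library 0. In FPKM the groups of Hist1h2bb overlapped. The cluster 2 genes Hist2h2bb and Hist2h2be, at 4.67 to 7.33 and 6.60 to 8.90 CPM, overlapped and had log2 fold changes of 0.02 ± 0.20 and 0.04 ± 0.14. Hist1h2ba, a testis H2b gene, held 6 fragments in all and was not tested. Hist3h2ba and Hist3h2bb-ps of cluster 3 held 56 and 36 fragments and were not tested either.

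**Figure D4:**
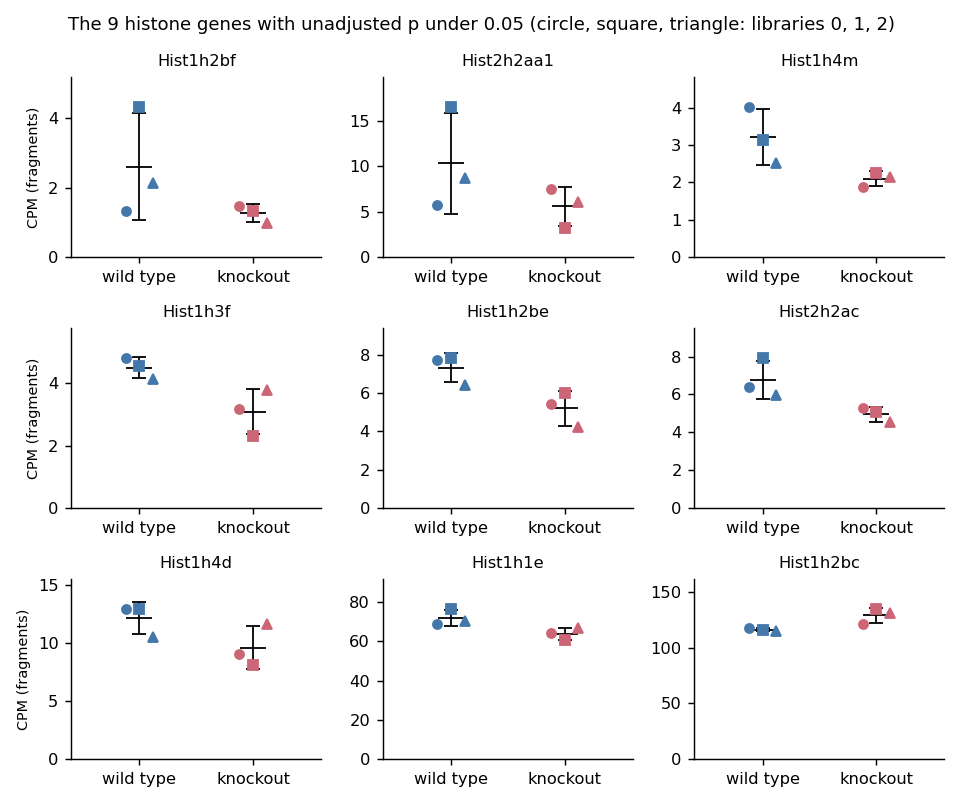
CPM by library for the 9 histone genes with an unadjusted p under 0.05, with wild type in blue, knockout in red, circle, square and triangle for libraries 0, 1 and 2, and black lines for the mean and SD. Groups are apart in 6 of the panels, Hist1h2bc is the panel where knockout is higher, and wild-type library 1 sets the wild-type mean of Hist1h2bf and Hist2h2aa1.

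In class H3, all 6 tested genes had a lower fitted mean in knockout, against 51.7% of all genes, at a median log2 fold change of -0.50. In the fit without the low-count filter all 12 did, at a median of -0.61, against -0.02 over all genes. Of these 12, 4 had an unadjusted p under 0.05 by edgeR, where 4.72% of all genes were lower with such a p. The H3 genes below the filter held only 13 (Hist1h3b) to 62 (Hist1h3i) fragments in total, and Hist1h3b was nearly level, at 0.125 CPM in wild type and 0.111 in knockout. Coding sequences of H3 genes were 93.7% to 99.8% identical in pairs of equal length, so the 12 may not be separate readings. With a library left out the count of lower H3 genes was 5 of 7 without knockout library 0, and 6 of 7 without knockout library 1 or wild-type library 2. Hist1h3f had 4.81, 4.55 and 4.15 CPM in wild type and 3.19, 2.33 and 3.77 in knockout. The groups did not overlap, and its log2 fold change was -0.53 ± 0.19 (unadjusted p = 0.021, adjusted p = 0.599 by edgeR). Without wild-type library 0 it was -0.48 with an unadjusted p of 0.057. Hist1h3e, the H3 gene with the highest FPKM, had 3.97, 2.85 and 2.73 in wild type and 2.73, 1.79 and 2.80 in knockout, which overlapped (log2 fold change -0.37 ± 0.24). The cluster 2 gene Hist2h3c1 had 3.52, 3.08 and 5.52 in wild type and 2.50, 4.65 and 4.31 in knockout, with overlap. Hist2h3c2 had 1.84, 2.80 and 2.14 in wild type and 0.797, 1.53 and 1.89 in knockout (log2 fold change -0.69 ± 0.32, unadjusted p = 0.058). Hist1h3a had a log2 fold change of -0.47 ± 0.34. Hist2h3b, of the same cluster as Hist2h3c2, held 30 fragments in all, none of them in knockout library 0. Without wild-type library 0, the median over the 6 tested H3 genes was -0.33.

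In class H4, the levels of the leading genes overlapped between genotypes. Hist1h4c had 50.7, 49.6 and 38.9 CPM in wild type and 49.4, 45.0 and 46.8 in knockout (log2 fold change 0.02 ± 0.10). Hist1h4h had 40.2, 37.4 and 34.3 in wild type and 41.3, 39.1 and 39.7 in knockout (0.10 ± 0.08). Hist2h4 and Hist4h4, the H4 genes on chromosomes 3 and 6, had log2 fold changes of 0.01 ± 0.13 and 0.04 ± 0.11. Hist1h4d had 12.9, 12.9 and 10.5 in wild type and 8.995, 8.04 and 11.6 in knockout, which overlapped, and its log2 fold change was -0.34 ± 0.15 (unadjusted p = 0.048, adjusted p = 0.599 by edgeR). By FPKM, on its locus of 312 bases, it was -0.07 with an unadjusted p of 0.593 by limma. With wild-type library 0 left out, its unadjusted p by edgeR was 0.120. With knockout library 1 left out, the log2 fold change was -0.23 and the unadjusted p 0.170. Hist1h4m had 4.02, 3.13 and 2.53 in wild type and 1.88, 2.26 and 2.16 in knockout, with no overlap, and a log2 fold change of -0.63 ± 0.22 (unadjusted p = 0.017, adjusted p = 0.599 by edgeR). Without wild-type library 0 that value was -0.44 with an unadjusted p of 0.076. Hist1h4m has the same coding sequence as Hist1h4n, and both have the same deposited locus, which misses the GENCODE gene of Hist1h4n. In GENCODE they lie apart, at chr13:21811746-21812147 on the plus strand and chr13:21831767-21832196 on the minus strand. The pair summed to 4.47, 3.84 and 2.98 in wild type and 2.05, 2.33 and 2.43 in knockout.

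The deposited units, each with its own fit, gave different fold changes for H4. A limma fit on log2(FPKM + 0.1) gave Hist1h4c a log2 fold change of 0.29, against 0.02 by fragments. The same fit gave Hist1h4h 0.28, against 0.10, and Hist2h4 0.27, against 0.01. Over all classes, limma on log2(FPKM + 0.1) gave 11 members an unadjusted p under 0.05 (30.6% of those tested, against 7.82% of all genes), 7 lower and 4 higher in knockout, and none passed after adjustment. FPKM values did not overlap between groups for 5 members with lower knockout values (13.9%, against 6.52% of all genes) and 1 with higher values (2.78%, against 6.78%). The median over tested H4 genes was 0.21 by FPKM and 0.01 by fragments. The quotient of CPM and FPKM, in bases, reflects the length that FPKM was scaled by together with any difference in scaling between libraries, which were not separated. For Hist1h4c it was 146, 191 and 166 bases in wild type and 140, 131 and 149 in knockout, where the deposited locus spans 312 bases. For Hist1h1c, on a locus of 1561 bases, it was 1339 to 1445 bases in all libraries.

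In the medians, the shift followed the span of the deposited locus. In genes of at most 350 bases the median FPKM log2 fold change exceeded that of fragments by 0.28 (16 genes), and the 7 histone genes among them gave 0.26. From 350 to 450 bases the medians were 0.18 for 10 genes and 0.18 for their 6 members, and above 2000 bases 0.01 for 13976 genes and -0.003 for 7 members. The locus of 29 histone genes has exactly the coding length, so it leaves out any sequence after the stop codon, and 50 members span at most 700 bases. By log2(FPKM + 0.1), the log2 fold change of Hist1h4m (405 bases) was -0.42, against -0.63 by fragments. That of Hist2h2ac (390 bases) was -0.30, against -0.45, and that of Hist1h2bf (381 bases) -0.69, against -1.06. For Hist1h3e (411 bases) it was -0.23, against -0.37. All of these were smaller by FPKM, and the first 2 genes, whose groups were apart in CPM, overlapped between groups in FPKM. Single members varied: from 450 to 700 bases the shift ran from 0.005 (Hist1h3c) to 0.51 (Hist2h2aa2). Fragments were fitted by edgeR and FPKM by limma on logs, so the fit differs along with the unit, and their parts were not separated.

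**Figure D5:**
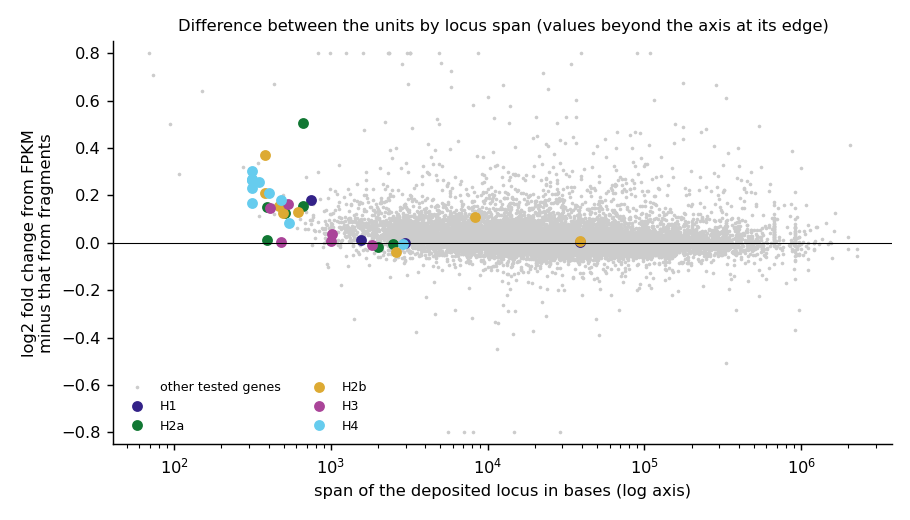
Difference between the log2 fold change from FPKM and that from fragments, against the span of the deposited locus on a log axis, for tested histone genes by class and other tested genes in grey. Members of at most 350 bases, all of them H4, lie between 0.17 and 0.30 above 0, and members over 2000 bases lie between -0.04 and 0.11.

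Other genes of chromatin supply were read from lists. None of the 22 tested genes of the S phase and proliferation list passed the adjusted threshold by edgeR or DESeq2, and 18 had a lower fitted mean in knockout, at a median of -0.12 against -0.01 for all genes. Their sum was 225, 202 and 203 CPM in wild type and 184, 191 and 200 in knockout, apart in CPM but overlapping in summed FPKM. Tyms, a nucleotide synthesis enzyme of S phase, had the smallest p of the list: 44.3, 53.6 and 52.2 in wild type and 39.2, 38.8 and 45.6 in knockout (unadjusted p = 0.018, adjusted p = 0.599 by edgeR). Mki67, a proliferation marker chosen after its values were seen, had 13.2, 5.79 and 7.79 in wild type and 2.73, 5.78 and 7.49 in knockout. It moved with wild-type library 0, and its part in the histone values was not tested.

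The replication-independent histone genes, which are made outside S phase, summed to 829, 799 and 773 CPM in wild type and 819, 863 and 831 in knockout, with overlap. Of 10 tested, 7 had a higher fitted mean in knockout and none passed the threshold; H3f3a had 205, 188 and 178 in wild type and 199, 233 and 209 in knockout. Factors of histone gene transcription and pre-mRNA processing, among them Slbp and the U7 complex, summed to 531 to 552 in all 6 libraries, with 0 of 17 tested past the threshold. Chaperones, which hand histones to DNA, summed to 778 to 825, with 0 of 16 past it. The non-histone genes within or beside the cluster on chromosome 13 summed to 1051 to 1554 in wild type and 1343 to 1691 in knockout, with 0 of 7 tested past the threshold. In these 4 lists DESeq2 called 0 genes as well, and 0 had an unadjusted p under 0.05 by edgeR.

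Markers of injury and of immune cells were highest in wild-type library 0. Tubular injury genes summed to 1382 CPM there and to 673 to 800 in the other libraries, and macrophage genes to 290 against 119 to 159. All 10 macrophage genes tested had a lower fitted mean in knockout, where 51.7% of all genes did. Lymphocyte genes summed to 6.75 in wild-type library 0 and 1.94 to 4.74 in the others. Endothelial and stromal genes summed to 379, 362 and 379 CPM in wild type and 369, 333 and 357 in knockout. Of the 6 tested, 3 had a higher and 3 a lower fitted mean in knockout. Pdgfrb and Col1a1, genes of stromal cells, were lower with an unadjusted p under 0.05 by edgeR, as were 5.14% of all genes. The testis markers Prm1, Prm2 and Tnp1 were at 0 in all libraries. The H3 sum was also highest in wild-type library 0, at 21.04 CPM, where libraries 1 and 2 gave 17.6 and 17.9, and the part of these markers in the histone values was not tested.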

How the data were processed

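RNA was extracted from right kidneys and made into stranded libraries depleted of ribosomal RNA, per the labels. The submitters' processing notes name TopHat2 2.0.13 with Bowtie2 2.2.3, Cufflinks 2.2.1 with Cuffdiff, cutadapt 1.2.1, SAMtools 1.2 and the assembly mm10. Nothing in the sources used here says which gene models were used, whether strand was counted or how a fragment with several alignments was shared out. Near-identical and overlapping histone genes are therefore uncertain. For 3 members, Hist1h2ao, Hist1h4n and Hist2h2aa1, the deposited locus misses their own GENCODE gene. The authors deposited estimated counts (fragments by gene and library), whole except in 312 genes, 4 of them histone genes, and FPKM for each library. Their deposited comparison holds, per the file headers, log2 fold changes, p-values and q-values. The library numbers 0, 1 and 2 match no sample label.

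Counts were rounded to whole numbers, passed through filterByExpr and TMM scaling, and tested over all genes with edgeR 4.0.16 (quasi-likelihood F test, two-sided, no covariates, R 4.3.3) with Benjamini-Hochberg adjustment and a threshold of 0.05. The biological coefficient of variation was 10.1%. CPM uses TMM-scaled library sizes. limma 3.58.1 was run on log2(FPKM + 1) and log2(FPKM + 0.1), and DESeq2 1.42.0 as another count test. Tests were tried on simulated counts. Hairpins, exons and coding sequences came from GENCODE M21 and promoters from RefSeq. Coding sequences stood in for the planned protein comparison, and 4 pairs were identical: Hist1h2ao and Hist1h2ap, Hist2h2aa1 and Hist2h2aa2, Hist1h2bq and Hist1h2br, and Hist1h4m and Hist1h4n.

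Named members are the 3 with the highest FPKM in each class, those with an unadjusted p under 0.05, those of clusters 2 to 4 with at least 10 fragments, testis members and those at 0. Other members, and the motifs ATTTGCAT and AAACACA, were chosen after their values were seen. The members and lists were chosen with earlier results of these data known. Alternatives were RLE scaling, other filters, DESeq2, FPKM and leaving out each library. The depth of each library limits genes with few fragments, and 28 members were too low to test.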

Additional observations from a re-analysis of the deposited data

How the results depend on the processing

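No histone gene passed the adjusted threshold under RLE scaling, either other filter, DESeq2, FPKM or with any library left out. DESeq2 gave many members of low level no adjusted p, so its result does not cover them. Over all genes, edgeR's 0 calls became 1 without the filter on low counts, 14 by DESeq2, and 0 to 1 with a library left out. The 9 members with an unadjusted p under 0.05 (8.31% of all genes) became 15 without the filter (7.55%), 5 by DESeq2 (5.59%), and 5 to 8 with a library left out (3.53% to 11.2%), with 5 without knockout library 1 (3.53%). The median log2 fold change of -0.32 became -0.13 with log2(FPKM + 1) and -0.16 with log2(FPKM + 0.1), and ranged from -0.37 to -0.18 with a library left out, the -0.18 being without wild-type library 0; it was -0.21 without knockout library 0. In summed FPKM the log2 ratio for all histone genes was 0.10 in place of -0.01, for H2a -0.36 in place of -0.24, for H4 0.20 in place of 0.00, and for cluster 1 0.13 in place of 0. Without the pair Hist2h2aa1 and Hist2h2aa2, a choice made after seeing the data, the H2a value was -0.09 in summed CPM and -0.23 in summed FPKM. The cause was not tested, beyond the relation to locus span given above. Of 298 values over 25 named members, 282 kept their direction. The other 16 changed sign when 1 library was left out. With each library left out in turn, Hist1h1c ranged from -0.017 (without knockout library 2) to 0.10 and Hist1h4c from -0.091 (without wild-type library 2) to 0.086. Hist2h2aa2 ranged from -1.43 to 0.44 (without wild-type library 1), Hist2h2ab from -0.46 to 0.13 (without knockout library 1) and Hist2h2bb from -0.13 to 0.17. Hist2h2be ranged from -0.073 to 0.15, Hist2h3c1 from -0.23 to 0.21, Hist2h4 from -0.093 to 0.11 and Hist4h4 from -0.038 to 0.16. No paired analysis was possible because the library numbers match no sample label and pair no mice. Counts of 1 to 62 fragments limited 28 members.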
